A study of Mus musculus with 6 samples.

Results

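The receptors through which neurons of the spinal cord and of the sensory ganglia read their survival factors were followed as 9 genes, Ntrk2, Ntrk3, Ngfr, Ret, Gfra1, Gfra2, Gfra3, Met and Lifr. They were taken by symbol from the 55433 genes of each count file, and all 9 passed the filter on low counts, with 97 counts or more in every library. RNA came from the spinal cords, dissected whole, of C57BL/6J mouse embryos at stage E13.5. The series compares 3 embryos labelled control with 3 labelled NFIAcKO, a design aimed at the role of the transcription factor NFIA in motor neurons. All 6 carried the NFIA-ff genotype, and those labelled NFIAcKO also carried Nestin-cre, a transgene that turns on cre in progenitors of the central nervous system and so marks their neuronal and glial offspring. Sensory ganglia come from the neural crest. No embryo carried cre without the NFIA-ff genotype, so effects of cre and of the deletion cannot be told apart.

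Neurotrophic factors are secreted proteins, many of them made by the targets of growing axons, that hold neurons alive and guide their branching. The neurotrophins act through the Trk receptor tyrosine kinases, TrkB from Ntrk2 for BDNF and TrkC from Ntrk3 for NT-3, and through p75 from Ngfr, a death-domain receptor that binds all neurotrophins. The GDNF family uses 1 shared kinase, Ret, which is engaged through the GPI-anchored co-receptors Gfra1 for GDNF, Gfra2 for neurturin and Gfra3 for artemin. HGF acts on the kinase Met, a survival and guidance receptor of limb motor neurons, and LIF, CNTF and cardiotrophin act through Lifr paired with gp130 from Il6st. At this stage motor neurons express many of these receptors together, while subsets of sensory neurons are told apart by which Trk they carry.

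The libraries held 43393053 to 51465763 counts in genes. The targeted gene did not bear out the label, since Nfia itself stood at 60.1, 59.1 and 79.2 CPM (counts scaled to library size, with TMM scaling) in control replicates 1, 2 and 3 and at 106, 108 and 119 CPM in NFIAcKO replicates 1, 2 and 3 (log2 fold change 0.75, adjusted p = 0.0031). Reads from exons left in place by recombination enter that count, which therefore does not test the deletion. Groups are therefore called by their labels, and every direction is that of the libraries labelled NFIAcKO over those labelled control. The labels say that these are separate embryos but give no litters. Control replicate 2 had 335 CPM of Xist and NFIAcKO replicate 2 had 201 CPM, while the other 4 libraries had 0.0635 CPM or less, so each group held 1 female embryo. File names of replicates 1 and 2 of both groups share one number, and those of the third replicates share another. What the number stands for is not in the labels.

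Because NFIA is a DNA-binding factor, the start regions of the members are shown where they hold its letters. NFI proteins bind the palindrome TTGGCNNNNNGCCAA and, more weakly, a single arm of it, TTGGC. RefSeq windows of GRCm38.p6, reaching from 250 bases before a gene's start to 50 after it, were available for 5 of the 9 members in 6 windows. The whole palindrome was in none of the 6, and 0.0365% of all 32851 windows held it. The single arm, read on either strand (GCCAA on the other), was in 3 of the 6, against 46.7% of all windows. These 3 stretches of 30 bases are given 5′ to 3′ on the strand of the gene, with the arm in capitals, because they belong to the called gene with the largest fold change, another called gene and one that was not called.
Met, chr6:17463716-17463745, plus strand: aagggcggggacGCCAAccccccccccccc
Lifr, chr15:7140556-7140585, plus strand: ccctccgtggcaTTGGCtcctgcccagggt
Gfra1, chr19:58455606-58455635, minus strand: gaaatcgtcctgGCCAActctgtcctccga
The arm began 229 bases before the RefSeq start of Met, 225 before that of Gfra1 and 27 after 1 of the 2 RefSeq starts of Lifr. These starts differ from the ends of the GENCODE coordinates given below, by which the Gfra1 and Lifr stretches lie inside their genes. Such a match describes letters in a window, and no binding was measured.

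By level per length, in CPM per kb of exon, Ngfr was the most abundant of the 9, with a mean of 57.5 and a range over the 6 libraries of 48.1 to 65.4. Gfra1 followed at 30.9 (27.2 to 33.7), and its range met neither neighbour in the order. Ret at 13.4 (10.5 to 15.7), Gfra2 at 12.3 (10.1 to 14.4) and Ntrk2 at 11.6 (10.5 to 13.3) overlapped each other. So did Met at 4.49 (3.45 to 5.5), Lifr at 4.07 (3.32 to 4.84) and Ntrk3 at 3.3 (2.87 to 4.07). Gfra3 was lowest at 1.52 (1.03 to 1.85). The length is the sum of all annotated exons of a gene, so Ntrk2 with 19292 bp and Ntrk3 with 30170 bp, which have kinase and truncated forms with their own 3′ exons, come out lower on this scale than by their counts.

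**Figure D1:**
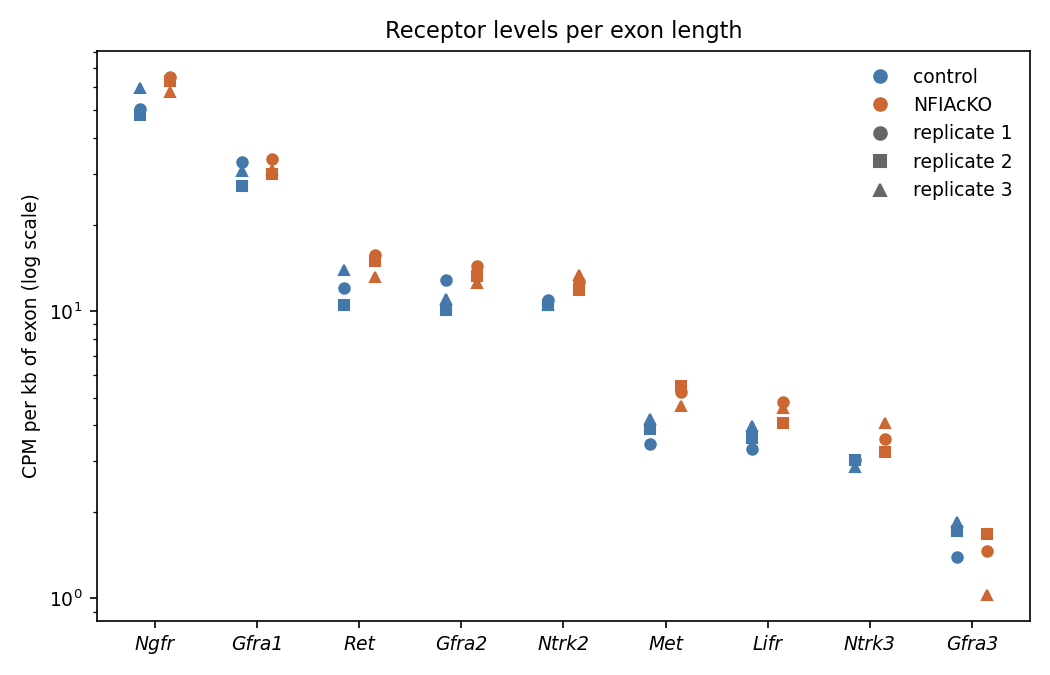
Level of each receptor in CPM per kb of exon (log scale) in each of the 6 libraries, with colour for the labelled group and marker shape for the replicate. Ngfr and Gfra1 stand above the other 7, Gfra3 is lowest, and within each gene the libraries span less than 2-fold.

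Between the groups, 3 of the 9 receptors rose in the libraries labelled NFIAcKO (Met, Lifr and Ntrk3), 6 did not pass the test, and 0 fell. The differences were small, at most 1.33-fold. Of all 17711 tested genes, 7.86% were called higher and 6.08% lower (edgeR, Benjamini-Hochberg adjusted p under 0.05 over all tested genes). The median log2 fold change of the members was 0.25, against -0.01 over all tested genes. Of the 9 values 8 lay above 0, as did 8661 of all 17711. Falls were called in none of the 9 by edgeR, DESeq2 or limma-voom. By edgeR 0 had an unadjusted p under 0.05 for a fall and 7 for a rise. Among all 17711 tested genes 2488 had such a p for a fall and 2792 for a rise. The groups did not overlap in 4 members, all higher in the libraries labelled NFIAcKO (Ntrk2, Ntrk3, Met and Lifr), where 17.3% of tested genes were separated in that direction. In bulk RNA a higher level of a receptor cannot be told apart from more cells that carry it.

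The number of receptors called rested on single libraries and on the fit. Leaving out control replicate 1 gave 0 of 9 higher (1.55% of tested genes), control replicate 2 gave 1 (3.88%) and control replicate 3 gave 6 (14.8%). Leaving out NFIAcKO replicate 1 gave 0 (1.72%), NFIAcKO replicate 2 gave 1 (3.29%) and NFIAcKO replicate 3 gave 1 (1.79%). DESeq2 called 4 higher. Of the 13649 genes to which DESeq2 gave an adjusted p, it called 13.8% higher and 10.3% lower. limma-voom called 2 (7.77% higher and 5.44% lower), and a fit with the replicate number as a block called 2 (7.64%). The file name number as a block gave 4 (9.6%), counts without a filter 4 (5.64% of 31190 genes), and upper quartile scaling 1, Met (5.97% higher and 8.1% lower). In every one of these fits Met was at 0.34 or above on the log2 scale.

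**Figure D2:**
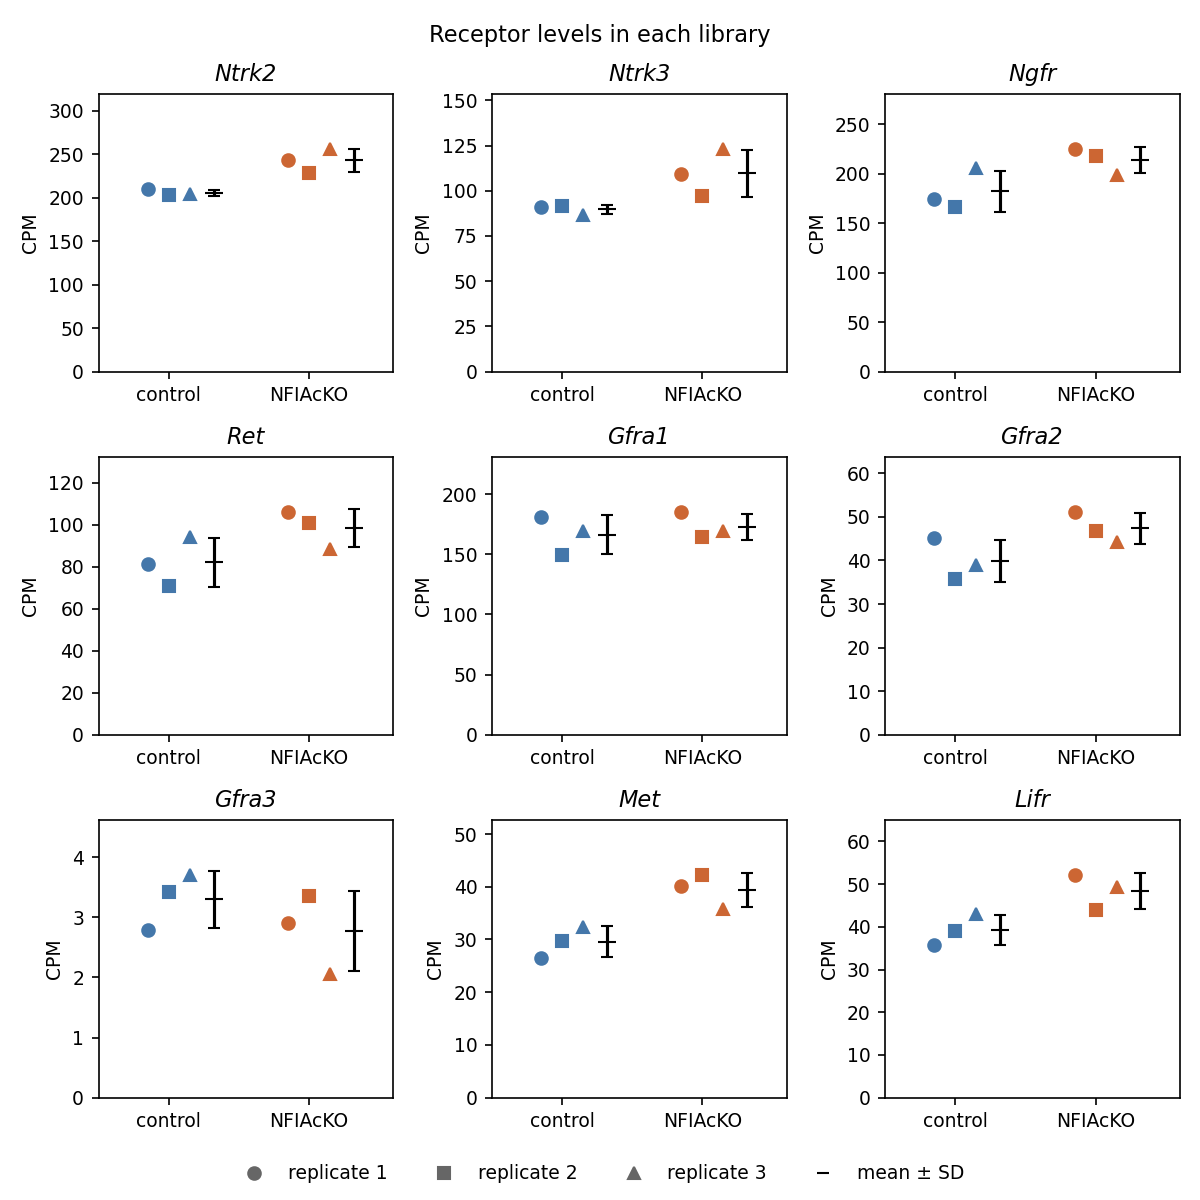
CPM of the 9 receptors in each library; marker shape gives the replicate, and the bar beside each group is the mean with its SD (n = 3). In Ntrk2, Ntrk3, Met and Lifr all 3 libraries labelled NFIAcKO lie above all 3 labelled control, and in the other 5 genes the groups overlap.

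Ntrk2, the receptor of BDNF (chromosome 13, 58806569 to 59133970 of GRCm38), stood at 210, 203 and 204 CPM in control replicates 1, 2 and 3 and at 244, 229 and 256 CPM in NFIAcKO replicates 1, 2 and 3. The control libraries were close together, and every library labelled NFIAcKO was above them. Even so the gene missed the threshold as counted, with a log2 fold change of 0.24 (SE 0.08, 95% interval 0.08 to 0.41, adjusted p = 0.0515). DESeq2 called it (adjusted p = 0.0136), as did the fit with the file name number as a block (0.0407) and that without control replicate 3 (0.0329).

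Ntrk3, the receptor of NT-3 and the Trk of muscle-spindle sensory neurons (chromosome 7, 78175959 to 78738012), had 91.0, 91.4 and 86.7 CPM in the control replicates and 109, 97.1 and 123 CPM in the NFIAcKO replicates. The control values were again close together and the groups did not overlap. It rose from a mean of 89.7 ± 2.6 (SD, n = 3) to 109 ± 12.9 CPM, by 0.29 on the log2 scale (95% interval 0.10 to 0.48, adjusted p = 0.044). NFIAcKO replicate 3 was the highest library for both Trk genes. The call for Ntrk3 was lost with the replicate number as a block (adjusted p = 0.0612), with limma-voom (0.0522) and with upper quartile scaling (0.0887). When single libraries were left out it held without control replicate 3 (0.0402) and NFIAcKO replicate 2 (0.0407). Leaving out control replicate 1 or 2 (0.147 and 0.0828) or NFIAcKO replicate 1 or 3 (0.142 and 0.231) ended it.

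Ngfr, which encodes p75 (chromosome 11, 95568818 to 95587735), stood at 175, 166 and 206 CPM in the control replicates and at 225, 218 and 199 CPM in the NFIAcKO replicates. The groups overlapped, because control replicate 3 was above NFIAcKO replicate 3. The difference was 0.23 on the log2 scale (95% interval 0.04 to 0.43, adjusted p = 0.105). Without control replicate 3 it was 0.33 and passed (adjusted p = 0.0036).

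Ret, the signalling kinase of the GDNF family (chromosome 6, 118151745 to 118197718), showed a like pattern. It stood at 81.4, 70.9 and 94.2 CPM in the control replicates and at 106, 101 and 88.6 CPM in the NFIAcKO replicates, with control replicate 3 again above NFIAcKO replicate 3. The log2 fold change was 0.26 (95% interval 0.04 to 0.49, adjusted p = 0.101). Without control replicate 3 it was 0.37 (adjusted p = 0.0039), and without a filter on low counts 0.26 (adjusted p = 0.0368).

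Of the co-receptors that bring GDNF ligands to Ret, Gfra1 (chromosome 19, 58235604 to 58455909) was near equal between the groups. It stood at 181, 149 and 169 CPM in the control replicates and at 185, 164 and 169 CPM in the NFIAcKO replicates. The 95% interval of its log2 fold change ran from -0.13 to 0.24 around 0.05 (adjusted p = 0.727). Its annotated exons share 416 bp with the antisense gene Gm16277, so part of its reads may have been counted elsewhere. Gfra2, the neurturin co-receptor (chromosome 14, 70890120 to 70979838), stood at 45.2, 35.7 and 39.0 CPM in the control replicates and at 51.1, 46.8 and 44.2 CPM in the NFIAcKO replicates. NFIAcKO replicates 1 and 2 lay above all controls and NFIAcKO replicate 3 below control replicate 1 (log2 fold change 0.25, 95% interval 0.04 to 0.45, adjusted p = 0.109). Gfra3, the artemin co-receptor of pain-sensing and sympathetic neurons (chromosome 18, 34689898 to 34720387), was low, with 122, 180 and 172 counts in the control replicates and 141, 155 and 97 in the NFIAcKO replicates. It was the 1 member with a value below 0, -0.25, with the widest interval (-0.70 to 0.19, adjusted p = 0.453).

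Among Ngfr, Ret, Gfra1 and Gfra2, control replicate 2 was the lowest library and NFIAcKO replicate 1 the highest in each. Control replicate 2 is the control with Xist. Within the 4 libraries of replicates 1 and 2, which share a file name number, a comparison chosen after seeing the data, Ret differed by 0.45 (adjusted p = 7.8e-05), Ngfr by 0.38 (0.001) and Gfra2 by 0.28 (0.0259) on the log2 scale, and all 3 were called. In that comparison 16.1% of tested genes were called higher. Between the third replicates, 1 library of each label and so without a test, Ret differed by -0.09, Ngfr by -0.05 and Gfra2 by 0.18. The Trk genes showed the other order, with 0.20 for Ntrk2 and 0.18 for Ntrk3 within replicates 1 and 2 (adjusted p = 0.112 and 0.143) and 0.33 and 0.50 between the third replicates. Met and Lifr lay above 0 in both, at 0.55 and 0.36 within replicates 1 and 2 (adjusted p = 2.7e-05 and 0.0025) and at 0.14 and 0.20 between the third replicates. Whether the difference itself depends on the number was not tested.

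Met, the receptor of HGF (chromosome 6, 17463800 to 17573980), was the member with the largest rise. It stood at 26.5, 29.8 and 32.4 CPM in control replicates 1, 2 and 3 and at 40.2, 42.2 and 35.8 CPM in NFIAcKO replicates 1, 2 and 3, with no overlap. The mean went from 29.6 ± 2.94 to 39.4 ± 3.29 CPM (SD, n = 3), a difference of 0.41 on the log2 scale (SE 0.10, 95% interval 0.20 to 0.63, adjusted p = 0.016). It was called by DESeq2, limma-voom and with each block, but not without control replicate 1 (adjusted p = 0.0983) or NFIAcKO replicates 1 and 2 (0.0825 and 0.0725). Over the 6 libraries, the 5 genes whose log2 CPM profile lay closest to that of Met, among 14333 genes with a mean of at least 1 CPM, were Prob1, Lhx3, Lama1, Tead1 and Sall1. Their root mean square differences from Met were 0.0515 to 0.0591 on the log2 scale after centring each gene. Lhx3 encodes a LIM homeodomain factor of motor neurons and V2 interneurons, and did not pass the test itself (0.32, adjusted p = 0.072), nor did Prob1 (0.31, 0.15). Lama1, a laminin chain, Tead1, a factor of the Hippo pathway, and Sall1, a zinc finger factor, rose with log2 fold changes of 0.46, 0.43 and 0.42 (0.0072, 0.0063 and 0.008 as adjusted p).

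Lifr, the signalling receptor for LIF, CNTF and cardiotrophin (chromosome 15, 7090614 to 7197489), had 35.8, 39.0 and 42.9 CPM in the control replicates and 52.1, 43.9 and 49.4 CPM in the NFIAcKO replicates. The highest control and the lowest library labelled NFIAcKO were close, but the groups did not overlap. Its mean rose from 39.2 ± 3.58 (SD, n = 3) to 48.5 ± 4.22 CPM, by 0.31 on the log2 scale (95% interval 0.10 to 0.51, adjusted p = 0.0446). With the replicate block the adjusted p was 0.0475. The call was lost with upper quartile scaling (0.0815), and among the 6 fits without 1 library it held only without control replicate 3 (0.0039), with adjusted p of 0.212 and 0.109 without control replicates 1 and 2 and of 0.196, 0.051 and 0.15 without NFIAcKO replicates 1, 2 and 3.

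Exonic length moved with these differences. In these libraries long transcripts were higher in those labelled NFIAcKO. Among the eighth of tested genes with the longest exons, 32.9% were called higher and the median log2 fold change was 0.21, and among the next eighth 14.4% were called higher with a median of 0.11. In the shortest eighth 0.32% were called higher. Ntrk2, Ntrk3 and Lifr belong to the longest eighth, and Met (7679 bp) and Ret (6763 bp) to the next. When a trend with length and GC content was removed from each library, 0 of the 9 members were called by edgeR in either direction. Of all tested genes 3.82% were then called higher and 3.87% lower. An unadjusted p under 0.05 for a rise was found for 3 members and for 2294 of all 17711 tested genes.

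The members did not respond alike to that removal. The long Trk genes changed sign, Ntrk2 from 0.24 to -0.11 (adjusted p = 0.29) and Ntrk3 from 0.29 to -0.09 (0.398). The length used was again the sum of all annotated exons, which joins their kinase and truncated forms. Whether the change of sign depends on that was not tested. Lifr went from 0.31 to 0.15 (adjusted p = 0.294) and Ret from 0.26 to 0.16 (0.25). Met kept 0.32 (SE 0.09, 95% interval 0.12 to 0.51), with an adjusted p of 0.0501. The short genes Ngfr (3446 bp) and Gfra2 (3539 bp) hardly moved, from 0.23 to 0.20 and from 0.25 to 0.27, with adjusted p of 0.0816 and 0.0744.

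**Figure D3:**
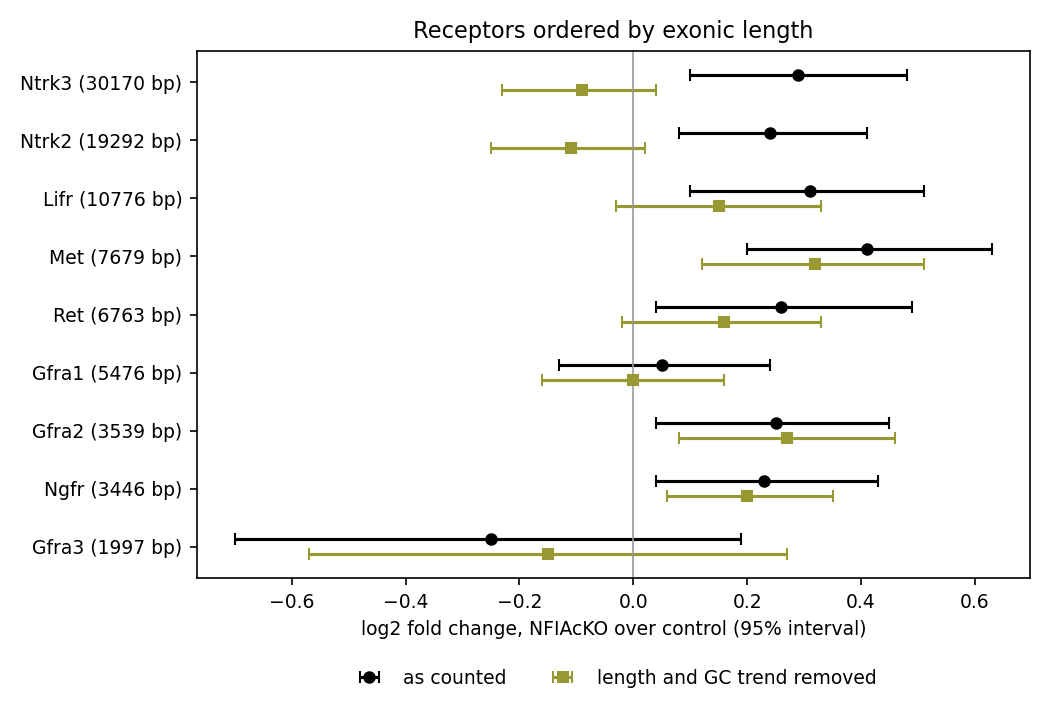
Log2 fold change of each receptor with its 95% interval, as counted (circles) and with the length and GC trend removed (squares), ordered by exonic length. The values of Ntrk3 and Ntrk2, the longest, cross 0 when the trend is removed, while Met, Gfra2 and Ngfr stay at 0.20 or above.

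Most ligands of these receptors had low counts. Ntf3, which encodes NT-3, had group means of 8.53 ± 0.621 CPM for control and 9.31 ± 0.680 CPM for NFIAcKO labels (SD, n = 3; adjusted p = 0.538). Bdnf had 4.45 ± 0.982 and 4.28 ± 0.374 CPM (adjusted p = 0.867), and 896 bp of its exons overlap the antisense gene Gm45346. Gdnf stood at 0.615, 0.684 and 0.624 CPM in the control replicates and at 0.806, 1.10 and 1.06 CPM in the NFIAcKO replicates, where every library labelled NFIAcKO was above every control, but the test did not call it (log2 fold change 0.62, SE 0.29, adjusted p = 0.167). Nrtn, Artn, Pspn and Ctf1 were between 0.403 and 1.41 CPM in group means and did not pass. Hgf, the ligand of Met, had at most 0.228 CPM in any library and was not tested. Nor were Ntf5, Lif, Cntf and Osm, for low counts, and Clcf1 was listed at 0 in all 6 libraries. Exons of Cntf share 847 bp (78.9% of its length) with Zfp91 on the same strand and those of Clcf1 311 bp with AC109138.7, so reads of these genes may not have been counted and their levels are uncertain.

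Of 10 tested ligands 1 passed, where 7.86% of all tested genes were called higher and 6.08% lower. It was Ptn, and it fell. It encodes pleiotrophin, a heparin-binding growth factor of glia and neurons that has receptors of its own, and it was by far the most abundant of the list. It stood at 608, 659 and 420 CPM in the control replicates and at 319, 354 and 360 CPM in the NFIAcKO replicates, without overlap (log2 fold change -0.71, SE 0.14, adjusted p = 0.0096). With the trend removed the value was -0.58 (adjusted p = 0.0234). The call was lost without control replicate 2 (0.0602) and NFIAcKO replicate 1 (0.0517).

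Some partner receptors rose with the members as counted. Of 18 tested receptors and co-receptors outside the 9, 6 rose and 12 did not pass, with a median log2 fold change of 0.23. Of all tested genes 7.86% were called higher and 6.08% lower. With the length and GC trend removed the median of the 18 was 0.02, and 3 were called higher, where 3.82% of all tested genes were. Il6st, the gp130 chain that pairs with Lifr, rose by 1.22-fold to 152 ± 6.57 CPM (SD, n = 3; adjusted p = 0.0257). Kidins220, a scaffold of Trk receptors, rose by 1.32-fold (adjusted p = 0.0116), Ncam1, an adhesion molecule that also binds GDNF with Gfra1, by 1.29-fold (0.0175), and Lingo1, which associates with p75, by 0.32 on the log2 scale (0.031). Cntfr, the alpha chain for CNTF, rose by 1.21-fold (0.0475) and Sdc3, a syndecan that binds GDNF, by 1.23-fold (0.0396). With the replicate block Cntfr was not called (0.0709). With the trend removed Cntfr (adjusted p = 0.0259), Kidins220 (0.0423) and Lingo1 (0.0484) were called, at 0.22 to 0.28 on the log2 scale, and Il6st, Ncam1 and Sdc3 were not (adjusted p = 0.538, 0.0805 and 0.192). Exons of Kidins220, Ncam1 and Sdc3 overlap antisense or divergent transcripts, by 138, 417 and 415 bp at most.

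Downstream of the receptors most genes did not pass, and the counts of adaptors and kinases stand against 7.86% higher and 6.08% lower among all tested genes. Of 29 adaptors 4 rose and 1 fell, with a median of 0.13. Gab2, a docking protein, rose by 1.41-fold (adjusted p = 0.0108), Sos1, the exchange factor that loads Ras, by 1.30-fold (0.0118), Sh2b2 by 1.23-fold (0.0334) and Rapgef1 by 1.22-fold (0.0346), while Crk fell by 0.29 on the log2 scale (0.0431). Of 29 genes of the Ras, PI3 kinase and JAK-STAT cascades 3 rose and 1 fell, with a median of 0.09. Among kinases that Ras activates, Braf rose by 1.31-fold (0.014) and Araf fell by 0.37 on the log2 scale (0.0357). Araf missed the threshold with the replicate block (0.0619). Pik3r1, the regulatory subunit of PI3 kinase, rose by 1.27-fold (0.0151), and Mapk10 by 1.24-fold (0.0328). With the length and GC trend removed Gab2 and Sos1 were called (adjusted p = 0.0218 and 0.0339), as was Araf (0.0489). The values of Braf, Pik3r1 and Mapk10 came down to log2 fold changes of 0.20, 0.19 and 0.12 (0.10, 0.0784 and 0.344 as adjusted p) and those of Sh2b2 and Rapgef1 to 0.13 and 0.11 (0.298 and 0.261), and none of these 5 was called, nor was Crk (0.0502).

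Feedback inhibitors of receptor kinases held the largest called rise among the pathway genes. The test called 4 of 20 higher and left 16, with a median of 0.15, where 7.86% of all tested genes were called higher. Nf1, which encodes the Ras GTPase-activating protein neurofibromin, stood at 56.4, 59.4 and 62.3 CPM in the control replicates and at 89.5, 86.1 and 100 CPM in the NFIAcKO replicates, far apart (0.63 on the log2 scale with an SE of 0.08, adjusted p = 0.0025). Cbl, a ubiquitin ligase that sends activated receptors to degradation, stood at 66.5, 65.6 and 77.3 CPM and at 101, 97.0 and 96.2 CPM (0.49, SE 0.08, adjusted p = 0.0049). Leaving out any of the 6 libraries kept both calls, as did removal of the trend (0.37 and 0.26, adjusted p = 0.0119 and 0.0331). Cblb rose by 1.34-fold (0.0125) and Spred2 by 1.31-fold (0.0121). With the trend removed Spred2 was called (0.019) and Cblb, at 0.23, was not (0.0867). The Sprouty genes and Dusp6, which are themselves targets of the Ras pathway, did not pass.

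Genes that respond to these receptors gave 1 call among 14, a share near the 7.86% of all tested genes called higher. Egr1, an immediate early gene, rose by 1.54-fold from 5.23 ± 0.784 (SD, n = 3) to 8.05 ± 0.370 CPM (adjusted p = 0.014, and 0.0295 with the trend removed). Without control replicate 2 and NFIAcKO replicates 1 and 3 it was not called (0.0622, 0.0656 and 0.0701). The ETS factors that NT-3 and GDNF switch on in sensory and motor pools did not pass: Etv1 differed by 0.18 (adjusted p = 0.308), Etv4 by -0.04 (0.862) and Etv5 by 0.18 (0.259) on the log2 scale.

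Over the 131 pathway genes, 120 were tested, 18 rose, 3 fell and 99 did not pass, where 7.86% of all tested genes were called higher and 6.08% lower. Removal of the trend left 11 higher and 2 lower (3.82% and 3.87% of all tested genes), and 11 of the 21 genes called as counted were called again in the same direction. Of these 21, 5 were called without control replicate 1, 10 without control replicate 2, 21 without control replicate 3, 2 without NFIAcKO replicate 1, 9 without NFIAcKO replicate 2 and 3 without NFIAcKO replicate 3. In these fits 1.55% to 14.8% of all tested genes were called higher.

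**Figure D4:**
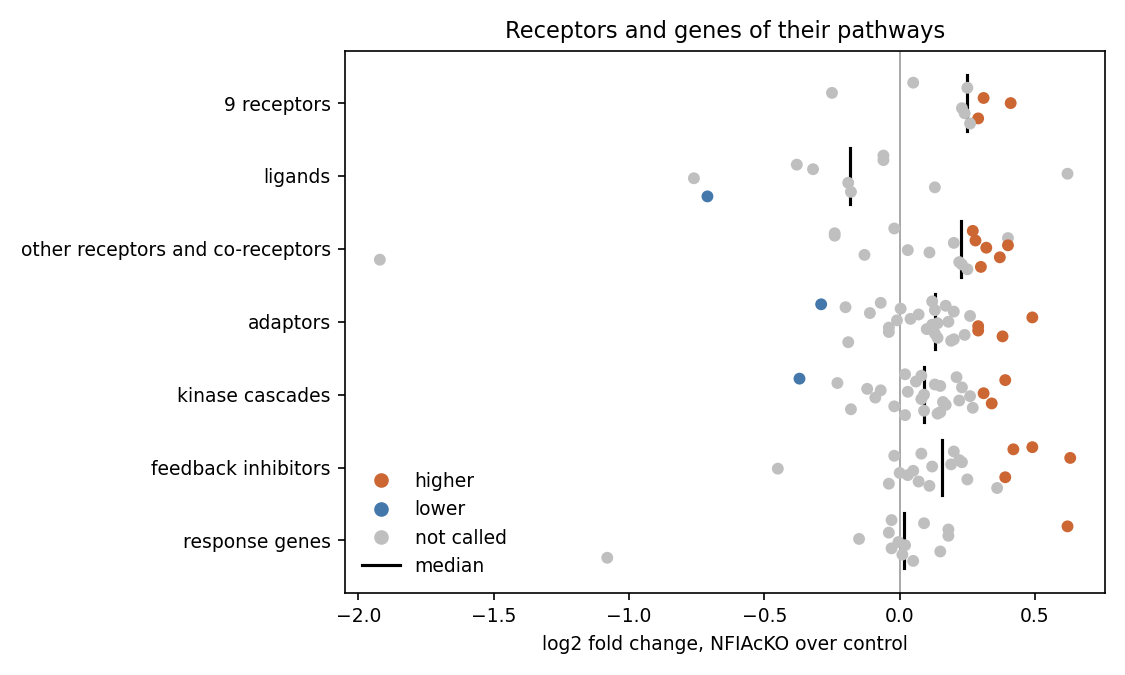
Log2 fold change of each tested gene of the 9 receptors and of the 6 pathway lists, coloured by its call at an adjusted p under 0.05, with the median of each list as a line. The receptors and partner receptors have the highest medians (0.25 and 0.23) and the ligands the lowest (-0.18).

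Genes of pain-sensing neurons of the sensory ganglia varied widely within both groups. P2rx3, an ATP-gated channel of these neurons, stood at 2.44, 7.62 and 6.82 CPM in control replicates 1, 2 and 3 and at 3.04, 2.68 and 1.5 CPM in NFIAcKO replicates 1, 2 and 3, and its difference was not called (log2 fold change -1.23, SE 0.47, adjusted p = 0.142). Scn10a, a sodium channel of the same neurons, was at 1.84 and 1.38 CPM in control replicates 2 and 3, at 0.806 CPM in NFIAcKO replicate 1, and not above 0.0911 CPM elsewhere. Of 13 tested sensory ganglion markers 0 were called by edgeR or limma-voom and 1 by DESeq2, as lower. By edgeR 3 had an unadjusted p under 0.05, all as lower, where 2488 of all 17711 tested genes had such a p as lower. Summed, the sensory ganglion markers made 390 to 417 CPM under the control label and 337 to 388 CPM under the NFIAcKO label. Most of it came from Sncg, Pou4f1 and Isl1, which cord neurons also express. Gfra3 was lowest in NFIAcKO replicate 3, as P2rx3 was. Ret, Ngfr, Ntrk2 and Ntrk3 are expressed in ganglia as well as in the cord, and the part of ganglion RNA in their values was not tested.

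**Figure D5:**
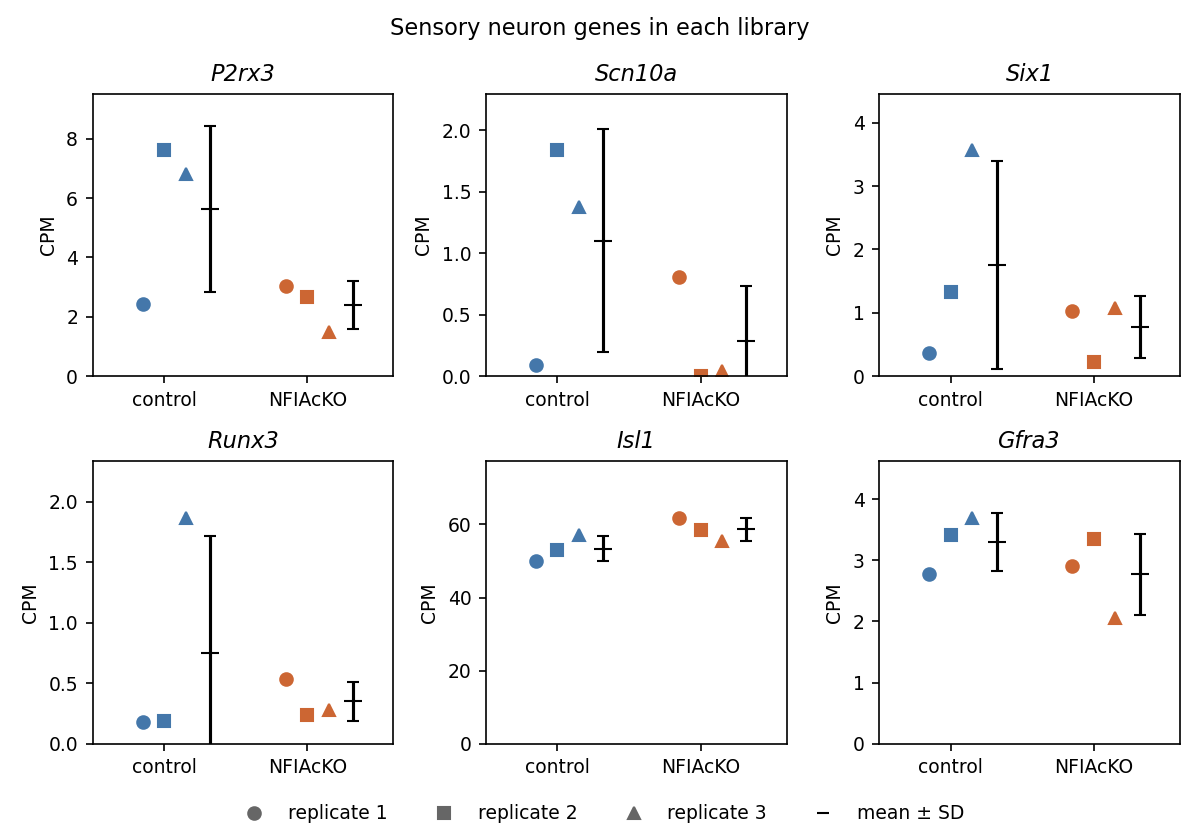
CPM of P2rx3 and 4 other sensory neuron genes and of Gfra3 in each library, with the mean and SD of each group (n = 3; bars stop at 0). P2rx3 and Scn10a are high in control replicates 2 and 3, while Isl1, which motor neurons also express, stays between 50.1 and 61.9 CPM.

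Other cells that carry these receptors were read from their markers. The counts of called markers stand against 7.86% higher and 6.08% lower among all tested genes, and 3.82% and 3.87% with the trend removed. Motor neuron markers summed to 330 to 378 CPM under the control label and 375 to 389 CPM under the NFIAcKO label, led by Prph, Isl1 and Slc5a7, and of 10 tested 2 rose, Lhx4 by 1.32-fold (adjusted p = 0.0311) and Slit3 by 1.41-fold (0.0284). With the trend removed neither was called (0.0556 and 0.0603). Mnx1, not called as counted (log2 fold change 0.35, adjusted p = 0.0703), was then called higher (0.42, adjusted p = 0.0404), as the only marker of this list. Schwann and neural crest markers, from cells that express Ngfr, summed to 80.1 to 102 CPM and 80.9 to 104 CPM. Of these, Gas7 rose by 1.34-fold (0.0307, and 0.278 with the trend removed), Foxd3 was at or below 0.0216 CPM, and Egr2 was listed at 0. Markers of radial glia and astrocytes, cells in which the truncated form of Ntrk2 is made, summed to 3050 to 3230 CPM and 2770 to 3020 CPM, and of 9 tested 4 fell (Aldh1l1, Hopx, Fabp7 and Slc1a3, by 0.38 to 0.81 on the log2 scale) and 1, Nes, rose. With the trend removed Fabp7 was at -0.21 (adjusted p = 0.0715) and Nes at 0.33 (0.055), neither called, and the other 3 were. Markers of meninges and mesenchyme summed to 1350 to 1740 CPM and 1580 to 2140 CPM, highest in NFIAcKO replicate 1, with 1 of 10 called, Pdgfrb, which rose by 1.20-fold (0.0483). That call was lost with the replicate block (0.0584) and with the trend removed (0.129). Skeletal muscle markers summed to 12.5 to 26.1 CPM and 20.9 to 25.5 CPM, most of it from Pax7 (8.66 to 20.8 CPM), which dorsal progenitors of the cord also express. Myh3, the embryonic myosin, reached at most 2.58 CPM in any library, and Tnnc2 was listed at 0. The part of these cells in the receptor values was not tested.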

How the data were processed

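Polyadenylated RNA of 6 spinal cords was sequenced from stranded libraries, per the labels' protocols. The authors deposited 1 file of counts per library, raw and per gene symbol. STAR 2.6.1a, HTSeq, DESeq2 and mm10 are named, without roles, per the submitters' processing notes. Annotation release and strand setting: not given in the sources used here. Counts of overlapping or antisense genes are uncertain for that reason. The 5 summary lines (16.9 to 19.4% of a file) were left out.

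From the counts, edgeR 4.0.16 (R 4.3.3) was fitted on all 6 libraries: TMM scaling, filterByExpr (17711 genes), robust quasi-likelihood F test, Benjamini-Hochberg adjustment, threshold 0.05. SE and intervals are those implied by the F test. CPM are on TMM-scaled sizes. On simulated counts of the 17711 genes for this comparison with 200 changed, 62% of 1.5-fold and 76% of 2-fold changes were recovered. Chi-square tests between libraries of a group gave 10.9 to 45.3 per degree of freedom, above sampling noise, and each library counted as a sample. A count of 0 allows up to 3 counts, 0.0583 to 0.0691 CPM, for counting error only.

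Same-numbered replicates deviated together (correlations of 0.353, 0.397 and 0.193 across genes), and every library correlated best with its own number. The labels do not say what a number shares; the replicate block is given where it changed a call. Alternatives were DESeq2 1.42.0, limma-voom (limma 3.58.1), upper quartile scaling, no filter, blocks, removal of a length and GC trend (natural splines with 5 degrees of freedom per library, as offsets) and leaving out each library. Lengths and coordinates are from GENCODE M21 of GRCm38, the assembly mm10 names, which held 98.8% of tested genes. The members, the gene lists and the choice of alternatives were made with earlier results of these data known. Named were all members, up to 4 called genes of each pathway list by smallest p, tested ligands, the 3 highest and the called markers of each cell type, and the 5 genes nearest the called member with the largest change. Cntfr, Sdc3, Mnx1, untested ligands, genes named as not passing and P2rx3 and Scn10a were added after their values were seen. Some genes this rule covers are not reported here.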

Additional observations from a re-analysis of the deposited data

How the results depend on the processing

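Of the 9 receptors, 3 were called higher as counted, 4 with DESeq2, without a filter or with the file name number as a block, 2 with limma-voom or the replicate block, 1 with upper quartile scaling, 0 with the length and GC trend removed, 5 within replicates 1 and 2 (chosen after seeing the data), and 0 to 6 when a library was left out. Of the pathway genes, 18 were higher and 3 lower as counted, 11 and 2 with the trend removed, 18 and 2 with the replicate block and 38 and 7 within replicates 1 and 2; leaving out a library gave 2 to 37 higher and 0 to 6 lower. With DESeq2, limma-voom, upper quartile scaling, no filter and the file name block they were 15 to 26 higher and 3 to 4 lower. Directions reversed for Ntrk2 (-0.11) and Ntrk3 (-0.09) with the trend removed, for Gfra1 with the trend removed (-0.00094) and without control replicate 2 (-0.03, the lowest of -0.03 to 0.11 when a library was left out), and for Gfra3 within replicates 1 and 2 (0.01). Upper quartile scaling turned the calls over all genes from 7.86% higher and 6.08% lower to 5.97% and 8.1%. The causes were not tested. The replicate block ended the calls of Ntrk3, Cntfr and Araf and no other call of a member or pathway gene. With 3 libraries a group, 62% of simulated 1.5-fold changes were recovered. The members differed by at most 1.33-fold, and recovery of changes that small was not simulated. The simulated libraries also had no deviations shared by replicate number. Members that did not pass are therefore not shown to be equal.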

Other observations

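Some genes of the fixed lists were listed at 0 in all 6 libraries, among them Rtn4r, Pik3r2, Clcf1, Gfral, Egr2, Trem2 and Tnnc2, and they entered no test. Endothelial markers went both ways: of 8 tested, Cdh5 rose by 1.46-fold (edgeR, adjusted p = 0.0073), Kdr by 1.40-fold (0.0105) and Pecam1 by 1.20-fold (0.0473), while Cldn5 fell by 0.30 (0.0195) and Esam by 0.34 (0.0457) on the log2 scale. With the replicate block Pecam1 was not called (0.06), and with the trend removed Cdh5 and Kdr were called (0.0145 and 0.0384) and Pecam1, Cldn5 and Esam were not (0.114, 0.146 and 0.0934). Of 7 tested microglial markers 3 fell, Tyrobp by 0.68 (0.0206), P2ry12 by 0.45 (0.045) and C1qb by 0.43 (0.0189) on the log2 scale, and with the length and GC trend removed these 3 were not called (adjusted p = 0.149, 0.43 and 0.162). P2ry12 was also not called with the replicate block (0.0514). Among all tested genes 7.86% were called higher and 6.08% lower as counted, and 3.82% and 3.87% with the trend removed.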
